A study of Homo sapiens with 8 samples.

Results

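The genes described here encode the enzymes that carry glucose carbon through glycolysis and on into the mitochondrial tricarboxylic acid (TCA) cycle. A list of 43 gene symbols was matched to the gene names of the deposited expression table, and 42 of the 43 were found among its 16525 genes. The remaining symbol, HK2, was not analysed here. Of the 42 members, 16 belong to glycolysis (hexokinase to lactate dehydrogenase) and 26 to pyruvate entry, the TCA cycle and the malic enzymes. The list was drawn up by function and no expression value entered the rule, but it was chosen with earlier results of these data known.

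The cells were EndoC-βH5, a human beta-cell line derived from fetal pancreas and immortalized with SV40LT and hTERT transgenes that were later removed, so every library comes from the same line. They were either left untreated (control, 4 libraries) or exposed for 48 h to a mixture of 50 U/mL IL-1β with IFNγ and TNFα at 1000 U/mL each (cytokine, 4 libraries). RNA-seq read counts were deposited as CPM, counts scaled to a common library total. The comparison asks which transcripts changed when all 3 cytokines were present together.

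Glycolysis splits glucose into pyruvate in the cytosol, and pyruvate then either becomes lactate, enters mitochondria as acetyl-CoA through the pyruvate dehydrogenase complex, or is carboxylated to oxaloacetate. Beta cells are known for coupling this flow to insulin release, in that most pyruvate is passed to mitochondria and the hexokinase of high glucose affinity and lactate dehydrogenase are kept low. Pyruvate dehydrogenase kinases phosphorylate and switch off the complex, while pyruvate carboxylase and the malic enzymes cycle carbon between pyruvate and the TCA intermediates.

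Between 36956294 and 40117636 reads fell on the listed genes in control and between 36577438 and 39348935 in cytokine libraries. These reads were 73.4-79.9% of the library totals to which the CPM were scaled. On those totals 1 read was worth 0.0196 to 0.0214 CPM. The column names give no replicate number, and each control column shares the start of its name with 1 cytokine column. These pairs are called A, B, C and D, and A and B share a name ending, as do C and D. All 12 beta-cell markers looked for were in the table and 7 of them were called lower with cytokines (17.5% of all genes were) and 0 higher, whereas 5 of 6 acinar and all 3 immune markers were not among the listed genes. The summed level of the 12 was 24488-36900 CPM in control and 29420-53076 CPM in cytokine libraries, and the markers of highest CPM, CHGA and IAPP, had log2 fold changes of 0.39 and 0.93 and were not called. Summed alpha-cell markers were at 1717-2985 CPM in control and 2070-2927 CPM in cytokine libraries, with IRX2 called higher. Summed delta-cell markers were at 364-2161 and 476-1994 CPM, and the 2 listed duct markers at 81.6-160 and 80.8-166 CPM. SST was at 1761, 2143, 615 and 355 CPM in control libraries A to D, and GCG at 19.8, 27.2, 222 and 104 CPM. The summed level of the 3 listed mesenchymal markers went from 4.40-5.93 CPM in control to 8.28-15.9 CPM in cytokine libraries, with VIM called higher. The part of these shifts in the results below was not tested. The libraries are bulk RNA, in which fewer cells of a type and less RNA per cell cannot be told apart. The labels number the libraries as replicates and do not say whether they are separate cultures, so p-values measure the spread between these libraries.

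Cytokine exposure changed 10 of the 42 genes. PDK4, HK1 and PFKP were higher with cytokines, and GPI, PFKL, ALDOC, DLAT, PDK2, IDH1 and ME1 were lower. The genes from glyceraldehyde 3-phosphate to pyruvate and the TCA cycle enzymes other than IDH1 held no call, where 27% of all genes were called. Whether these small groups differ from all genes was not tested. A gene was called when its log2 fold change (cytokine minus control, on log2(CPM + 0.1)) exceeded 0.5 in size with an adjusted p below 0.05 in limma, adjusted over all 16525 genes. By this rule 10 of the 42 members (23.8%) were called, against 27% of all genes tested. Higher calls numbered 3, where 9.52% of all genes were called higher, and lower calls numbered 7, where 17.5% of all genes were called lower. The share of members called was therefore close to that of all genes, and this share is no result about the list as a whole. In 14 of the 42 members the ranges of the groups did not overlap, against 32.8% of all genes. An adjusted p below 0.05 alone was reached by 15 members, against 30.8% of all genes.

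The scaling between libraries mattered for genes with small changes. Over all genes the median log2 fold change was -0.17 on CPM and -0.02 after TMM scaling, a shift of the whole distribution that moves every gene upward by nearly the same amount. With TMM scaling 10 members were again called (24.7% of all genes), 6 of them higher (13% of all genes) and 4 lower (11.7% of all genes). With the pairs as a replicate block 11 members were called (35.4% of all genes). ALDOC, DLAT and ME1 lost their call under TMM scaling, and ENO2, SUCLG2 and ME3 gained a call as higher. HK1, GPI, PFKL, PFKP, PDK2, PDK4 and IDH1 kept their call and their direction in all 22 alternatives run. For HK1 this is no independent support, because it met the authors' expression filter only through the cytokine group, as described below. Of the 12 beta-cell markers 4 were called lower after TMM scaling and 1, NKX6-1, higher, and IAPP was called higher with the block and in edgeR with TMM. In each of the 10 called members the cytokine library was on the same side of its control in all 4 pairs. Except for ME1 the groups of these members do not overlap, so any pairing would give this outcome and it adds no support. The difference in cytokine effect between the A and B libraries and the C and D libraries was tested with an interaction term, and 0 of 42 members passed in limma (0 at an unadjusted p below 0.05, and 5 of all genes at an adjusted p below 0.05).

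**Figure D1:**
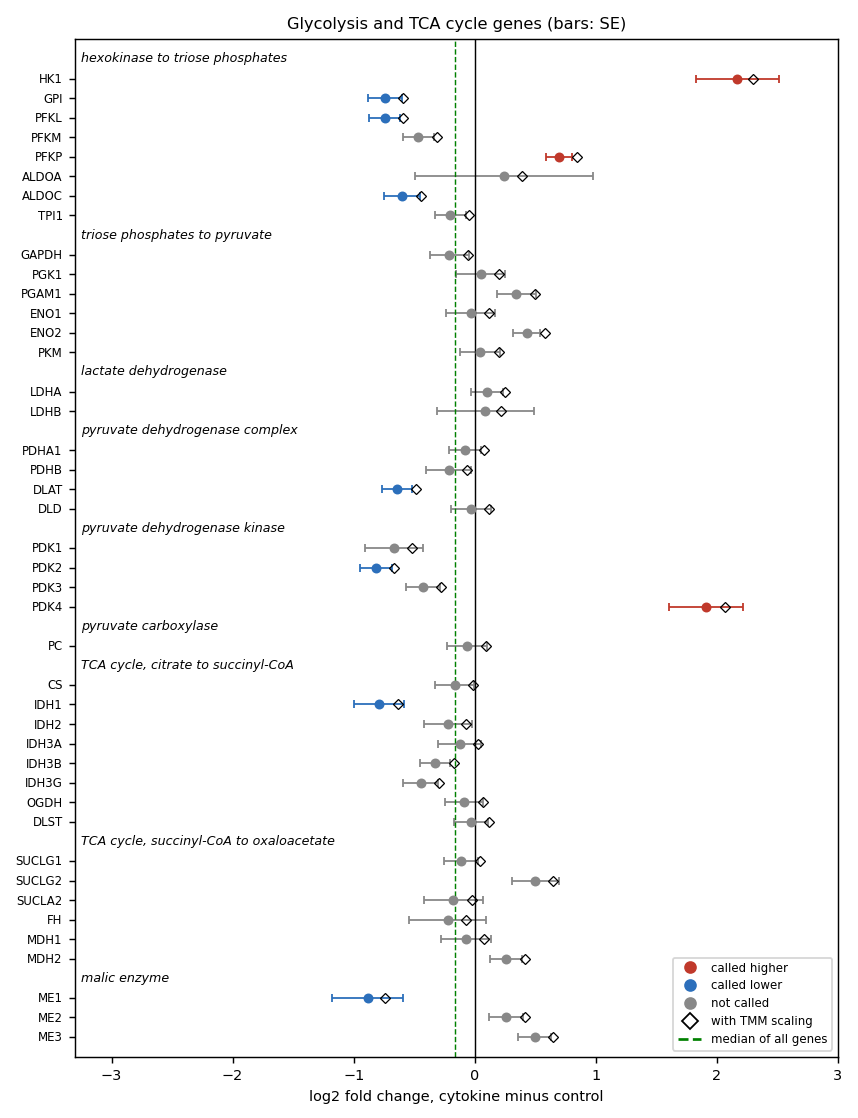
Log2 fold change (cytokine minus control, x axis) of the 42 members, grouped by step of the pathway. Filled points are limma estimates on CPM with their standard errors, open diamonds are the estimates after TMM scaling, and the dashed line is the median of all genes (-0.17). HK1 (2.17) and PDK4 (1.91) lie far to the right of the other members.

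The median log2 fold change of glycolysis was 0.05 over 16 genes, with 5 called (31.25%). That of pyruvate entry, TCA cycle and malic enzymes was -0.14 over 26 genes, with 5 called (19.2%). Of all genes 27% were called. After TMM scaling the same medians were 0.20 and 0.0074. Both medians move by about the size of the scaling shift, and the glycolysis median was -0.032, -0.066 and -0.012 when control D, cytokine A or cytokine C was left out. The median of pyruvate entry and TCA genes moved to -0.0145 when control C was left out. Summed over members, glycolysis transcripts amounted to 3422 ± 352 CPM (SD, n = 4) in control and 3211 ± 254 CPM (SD, n = 4) in cytokine libraries. The summed pyruvate entry and TCA transcripts amounted to 1281 ± 149 and 1241 ± 122 CPM (SD, n = 4 each). The ratio of the sums was 2.53-2.78 in control and 2.37-2.77 in cytokine libraries, which overlap.

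To show the sequence around the start sites of members that were called, RefSeq promoters (GRCh38.p14) from 250 bases before to 50 bases after each start were read for 41 of the 42 members, 70 promoters in all. Searched on both strands were ACGTG, the core shared by hypoxia response elements and the CACGTG type of E-box, TTCNNNGAA, the palindrome of IFNγ-activated (GAS) elements, and the IRF-type motif, GAAA and GAAA with any 2 bases between them, a core bound by interferon regulatory factors. ACGTG was present in 23 of the 70 member promoters (32.9%) and in 21.4% of all 35116 promoters, and the median GC content was 65.2% in member promoters and 58.7% in all promoters. TTCNNNGAA occurred in 7.14% of member and 7.66% of all promoters, and the IRF-type motif in 2.86% and 3.57%. Among the called members ACGTG was present at GPI, PFKP, ALDOC, DLAT, PDK2 and IDH1, and TTCNNNGAA at HK1 only. Counted by gene, ACGTG was present at 19 of the 41 members, called or not, and at 31.6% of 11732 listed genes. TTCNNNGAA was present at 4 of the 41 members and at 8.38% of these genes. Whether called members differ from the others in these motifs was not tested. The promoters below are those of called members with calls that held under every scaling, with the matched letters in capitals. The HK1 start shown is the seventh listed and has TTCNNNGAA beginning 63 bases upstream (position -63), PFKP (-139), GPI (-162) and IDH1 (-111) have a single ACGTG, and PDK2 has the palindrome CACGTG, in which ACGTG is read on both strands. The other listed starts of HK1, PFKP, PDK2 and IDH1, not shown, had none of the 3 motifs in this window. PFKL and PDK4, each with a single listed start, had none of the 3 motifs either.
HK1, chr10:69334364-69334663, + strand: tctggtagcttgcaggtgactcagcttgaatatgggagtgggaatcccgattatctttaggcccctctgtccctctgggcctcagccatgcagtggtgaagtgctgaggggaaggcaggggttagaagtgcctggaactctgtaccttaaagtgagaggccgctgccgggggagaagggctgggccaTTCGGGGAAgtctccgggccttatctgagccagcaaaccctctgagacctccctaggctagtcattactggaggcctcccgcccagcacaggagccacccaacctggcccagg
PFKP, chr10:3068939-3069238, + strand: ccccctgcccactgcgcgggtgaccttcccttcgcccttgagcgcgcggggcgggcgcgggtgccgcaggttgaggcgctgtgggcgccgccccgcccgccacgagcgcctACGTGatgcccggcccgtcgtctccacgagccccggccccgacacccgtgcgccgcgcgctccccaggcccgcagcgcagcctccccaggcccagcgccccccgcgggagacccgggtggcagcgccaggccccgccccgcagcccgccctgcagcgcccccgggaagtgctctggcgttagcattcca
GPI, chr19:34364742-34365041, + strand: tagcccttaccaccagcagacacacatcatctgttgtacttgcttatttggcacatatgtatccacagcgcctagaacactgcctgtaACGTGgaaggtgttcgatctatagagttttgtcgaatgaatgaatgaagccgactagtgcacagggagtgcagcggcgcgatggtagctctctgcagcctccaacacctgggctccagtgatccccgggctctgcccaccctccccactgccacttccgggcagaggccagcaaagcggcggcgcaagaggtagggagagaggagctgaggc
PDK2, chr17:50095101-50095400, + strand: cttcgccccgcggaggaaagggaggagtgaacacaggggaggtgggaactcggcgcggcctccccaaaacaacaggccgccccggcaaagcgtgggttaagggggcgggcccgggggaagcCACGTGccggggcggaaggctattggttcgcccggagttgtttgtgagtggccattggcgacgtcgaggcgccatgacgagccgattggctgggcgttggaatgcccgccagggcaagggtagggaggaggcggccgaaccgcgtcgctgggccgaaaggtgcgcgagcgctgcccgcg
IDH1, chr2:208254409-208254708, - strand: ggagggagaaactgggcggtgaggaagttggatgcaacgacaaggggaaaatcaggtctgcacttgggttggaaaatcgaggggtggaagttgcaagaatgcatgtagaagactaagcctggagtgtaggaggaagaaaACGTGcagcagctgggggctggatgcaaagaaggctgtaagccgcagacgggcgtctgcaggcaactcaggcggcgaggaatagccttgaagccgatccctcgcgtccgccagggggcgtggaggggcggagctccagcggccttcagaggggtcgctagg
PDK4, chr7:95596467-95596766, - strand: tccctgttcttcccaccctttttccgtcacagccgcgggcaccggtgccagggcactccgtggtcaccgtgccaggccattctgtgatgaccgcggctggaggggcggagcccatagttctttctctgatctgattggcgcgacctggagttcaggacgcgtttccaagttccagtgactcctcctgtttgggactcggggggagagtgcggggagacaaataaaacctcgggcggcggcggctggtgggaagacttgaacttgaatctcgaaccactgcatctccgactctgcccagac
PFKL, chr21:44299803-44300102, + strand: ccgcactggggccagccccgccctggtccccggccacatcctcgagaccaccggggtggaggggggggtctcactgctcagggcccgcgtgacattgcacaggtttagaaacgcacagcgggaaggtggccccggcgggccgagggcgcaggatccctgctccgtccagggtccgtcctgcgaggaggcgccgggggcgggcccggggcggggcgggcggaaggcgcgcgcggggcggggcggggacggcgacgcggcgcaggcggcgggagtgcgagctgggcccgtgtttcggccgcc

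The upper steps of glycolysis, from glucose to the triose phosphates, had 5 of 8 members called (27% of all genes), and 4 of 8 after TMM scaling (24.7% of all genes). HK1 and PFKP were higher, and GPI, PFKL and ALDOC were lower. HK1 (ENSG00000156515, chr10:69269984-69401884) encodes the hexokinase of high glucose affinity. Its levels were 1.0, 0.635, 0.378 and 0.450 CPM in control libraries A to D and 2.55, 2.54, 5.21 and 2.25 CPM in cytokine libraries A to D. Each cytokine library exceeded every control, on counts of at most 47 reads in a control library. The authors kept genes above 0.5 CPM in 4 or more samples, and controls C and D were below that level. Among the libraries used, HK1 thus met the filter only through the cytokine group, where it is high. The separation of the groups is therefore no independent support. The mean went from 0.617 ± 0.280 CPM (SD, n = 4) in control to 3.14 ± 1.39 CPM (SD, n = 4) in cytokine libraries, and the log2 fold change was 2.17 ± 0.34 (SE) with an adjusted p of 0.000827 in limma.

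GPI (ENSG00000105220, chr19:34359480-34402413) turns glucose 6-phosphate into fructose 6-phosphate. Its levels were 132, 139, 186 and 152 CPM in control libraries A to D and 86.3, 78.5, 103 and 94.3 CPM in cytokine libraries A to D. Every cytokine library was below every control library, and the mean went from 152 ± 24.0 CPM (SD, n = 4) in control to 90.6 ± 10.6 CPM (SD, n = 4) in cytokine libraries. The log2 fold change of GPI was -0.74 ± 0.14 (SE), with an adjusted p of 0.00245 in limma.

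Phosphofructokinase, which commits the sugar to glycolysis, is built from the subunits PFKL, PFKM and PFKP, and of these PFKL was lower and PFKP higher with cytokines. For PFKL (ENSG00000141959, chr21:44300051-44327376) the levels were 165, 157, 206 and 192 CPM in control libraries A to D and 99.4, 99.8, 119 and 110.1 CPM in cytokine libraries A to D. PFKP (ENSG00000067057, chr10:3066333-3137712) was measured at 57.9, 62.4, 65.4 and 73.0 CPM in control libraries A to D and 104, 101, 106 and 106 CPM in cytokine libraries A to D. For both genes the groups were fully separated, with PFKL lower and PFKP higher in all 4 cytokine libraries. The log2 fold change of PFKL was -0.74 ± 0.13 (SE), with an adjusted p of 0.00127 in limma. The log2 fold change of PFKP was 0.69 ± 0.11 (SE), with an adjusted p of 0.000747 in limma. PFKM (ENSG00000152556, chr12:48105139-48146404), the muscle-type subunit, was at 63.8, 62.6, 84.8 and 77.3 CPM in control libraries A to D and 50.1, 47.5, 56.2 and 53.6 CPM in cytokine libraries A to D. Its groups did not overlap either, and it passed the adjusted p but not the fold threshold (log2 fold change -0.47 ± 0.13 (SE), adjusted p = 0.0189 in limma). PFKM was called when control A, control B or cytokine C was left out, and its log2 fold change was -0.31 after TMM scaling.

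Since a share within a family does not depend on the scaling between libraries, the subunits were also compared per length. PFKP made up 30.6, 33.0, 28.0 and 32.0% of the summed phosphofructokinase TPM (transcript level per length, CPM divided by GENCODE exon length and rescaled) in control libraries A to D and 54.5, 54.3, 51.0 and 52.7% in cytokine libraries A to D. PFKL went from 46.4% ± 1.35 in control to 29.5% ± 1.26 in cytokine libraries and PFKM from 22.6% ± 0.939 to 17.4% ± 0.470 (SD, n = 4 each). The most abundant subunit transcript was PFKL in every control library and PFKP in every cytokine library. The family total was 168.6 ± 42.5 TPM (SD, n = 4) in control and 169.5 ± 27.2 TPM (SD, n = 4) in cytokine libraries, a difference far smaller than the spread.

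ALDOC (ENSG00000109107, chr17:28573115-28577264), an aldolase that cleaves fructose 1,6-bisphosphate, was at 31.5, 32.4, 42.5 and 26.9 CPM in control libraries A to D and 20.2, 21.6, 24.2 and 20.9 CPM in cytokine libraries A to D. Its groups did not overlap, and the log2 fold change was -0.60 ± 0.15 (SE) with an adjusted p of 0.0113 in limma. The call rests on the scale, because the log2 fold change was -0.45 after TMM scaling, and on control C, without which it was -0.48. TPI1 (ENSG00000111669, chr12:6867119-6870948), which interconverts the triose phosphates and was the most abundant member of these steps per length (269 TPM in control), was at 189, 191, 213 and 167 CPM in control libraries A to D and 178, 165, 179.7 and 138 CPM in cytokine libraries A to D. The groups overlapped and it was not called (log2 fold change -0.20 ± 0.13 (SE), adjusted p = 0.261 in limma). ALDOA had a wide spread between the A and B and the C and D libraries of both conditions, and 1657 of its 3916 exon bases (42.3%) are shared with another gene on the same strand, ENSG00000285043, so that its level of 2.40-21.9 CPM is uncertain.

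**Figure D2:**
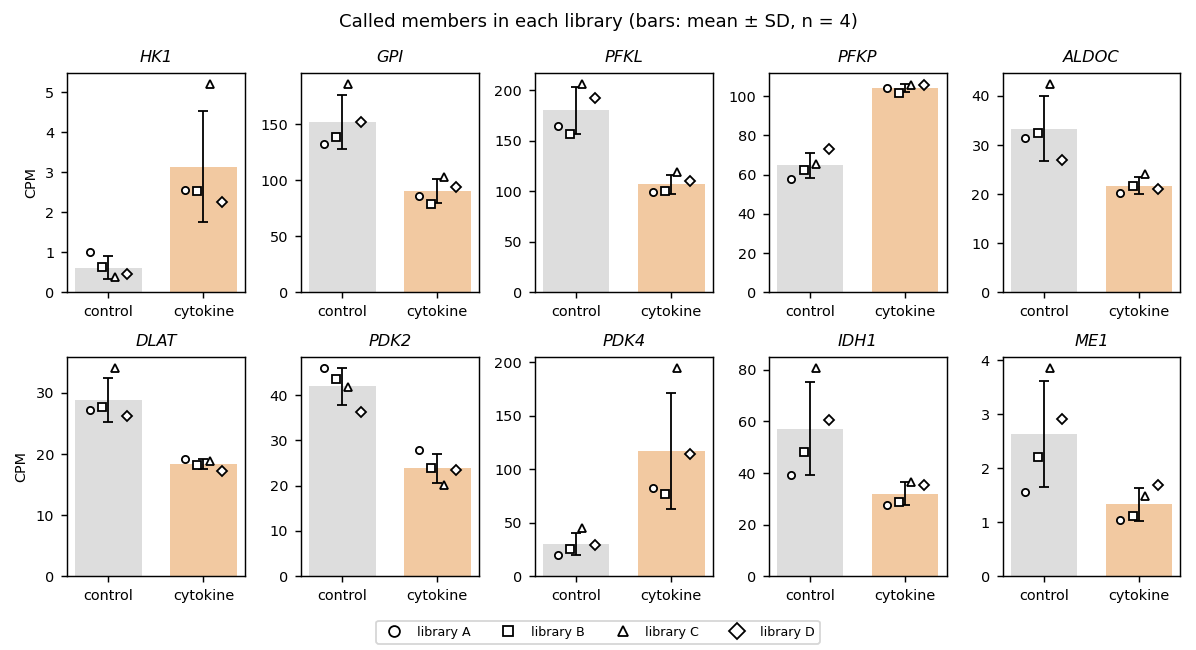
CPM (y axis, each panel from 0) of the 10 called members in each library, with bars at the mean and error bars of 1 SD over 4 libraries. The groups are separated in every panel except ME1, and cytokine library C is the highest for HK1 (5.21 CPM) and PDK4 (195 CPM).

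The lower steps, from glyceraldehyde 3-phosphate to pyruvate, held the 2 most abundant transcripts of the list per length, GAPDH and PKM. Of their 6 members 0 were called in limma (27% of all genes were). An adjusted p below 0.05 alone was reached by 1 of them, and an unadjusted p below 0.05 by 1. GAPDH (ENSG00000111640, chr12:6533927-6538374), which oxidizes glyceraldehyde 3-phosphate, stood at 1789 TPM in control. Its levels were 1275, 1353, 1664 and 1242 CPM in control libraries A to D and 1168, 1129, 1369.7 and 1105 CPM in cytokine libraries A to D. The groups overlapped, and the log2 fold change was -0.21 ± 0.16 (SE) with an adjusted p of 0.35 in limma. GAPDH was called lower (-0.56) only under quantile normalization, and 62 pseudogenes carry its name, so that reads may be divided among copies. ENO2 (ENSG00000111674, chr12:6913745-6923698), the neuronal and endocrine enolase, was at 233, 222, 238 and 243 CPM in control libraries A to D and 326, 346, 304 and 288 CPM in cytokine libraries A to D. The 4 cytokine libraries lay above the 4 controls, but the change stayed under the fold threshold on CPM (log2 fold change 0.43 ± 0.11 (SE), adjusted p = 0.0135 in limma) and passed it after TMM scaling (log2 fold change 0.58). PGK1, PGAM1, ENO1 and PKM were not called, with log2 fold changes between -0.03 and 0.34.

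Lactate dehydrogenase turns pyruvate into lactate, and neither of its 2 subunits was called (27% of all genes were). LDHA (ENSG00000134333, chr11:18394388-18408425) was at 37.0, 38.9, 43.2 and 33.2 CPM in control libraries A to D and 38.7, 45.7, 43.8 and 35.2 CPM in cytokine libraries A to D. The groups overlapped (log2 fold change 0.10 ± 0.13 (SE), adjusted p = 0.601 in limma). LDHB was low, with 10 to 53 reads in a library, and 997 of its 2983 exon bases (33.4%) are shared with another gene on the same strand.

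At the entry of pyruvate into mitochondria, 3 of 9 members were called, close to the 27% of all genes, and 2 of 9 after TMM scaling. Of the 4 subunit genes of the pyruvate dehydrogenase complex only DLAT, the acetyltransferase core, was called, and the kinases PDK4 and PDK2 were called in opposite directions. DLAT (ENSG00000150768, chr11:112024814-112064390) was at 27.2, 27.6, 34.1 and 26.2 CPM in control libraries A to D and 19.2, 18.2, 18.8 and 17.3 CPM in cytokine libraries A to D. Its groups did not overlap, and the log2 fold change was -0.64 ± 0.12 (SE) with an adjusted p of 0.00294 in limma. After TMM scaling its log2 fold change was -0.49, just under the threshold. PDHB (ENSG00000168291, chr3:58427630-58433857), the beta subunit of the decarboxylase and the most abundant of the 4 per length, was at 42.7, 47.6, 73.9 and 57.4 CPM in control libraries A to D and 40.0, 40.1, 57.4 and 51.5 CPM in cytokine libraries A to D. These overlapped (log2 fold change -0.22 ± 0.19 (SE), adjusted p = 0.419 in limma). PDHA1 and DLD had log2 fold changes of -0.08 and -0.03.

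PDK4 (ENSG00000004799, chr7:95583499-95596491), the kinase known to be induced by fasting and fatty acids, was at 20.3, 25.8, 44.8 and 29.6 CPM in control libraries A to D and 82.3, 76.9, 195 and 114 CPM in cytokine libraries A to D. Every cytokine library exceeded every control, and library C was the highest in both conditions. The mean went from 30.1 ± 10.5 CPM (SD, n = 4) in control to 117 ± 54.5 CPM (SD, n = 4) in cytokine libraries, and the log2 fold change was 1.91 ± 0.30 (SE) with an adjusted p of 0.000882 in limma. Without cytokine library C the log2 fold change was 1.63. PDK2 (ENSG00000005882, chr17:50094737-50112152), the widely expressed kinase, moved the other way, at 46.0, 43.7, 41.9 and 36.4 CPM in control libraries A to D and 28.0, 23.8, 20.1 and 23.5 CPM in cytokine libraries A to D. No cytokine library reached the lowest control, and the log2 fold change was -0.82 ± 0.13 (SE) with an adjusted p of 0.00104 in limma. On the opposite strand other annotated genes cover 2113 of the 5481 exon bases of PDK2, and the methods give default settings for the counting, which use strand, while the read orientation of the kit is not given in the sources used here.

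PDK3 (ENSG00000067992, chrX:24465221-24541862) was at 21.9, 23.8, 23.4 and 29.9 CPM in control libraries A to D and 19.1, 16.3, 16.7 and 21.3 CPM in cytokine libraries A to D. The groups were separated, and the change stayed under the fold threshold (log2 fold change -0.43 ± 0.14 (SE), adjusted p = 0.0433 in limma), although leaving out cytokine D gave a call. PDK1 had a log2 fold change of -0.67 with an adjusted p of 0.0560 in limma and was called lower in the fits with a replicate block (adjusted p = 0.000826 on CPM) or a term for the set of columns, and without control A or cytokine D. PDK1 is named because its value was seen to lie near the threshold. As a share of the summed kinase TPM, PDK4 held 25.5, 30.2, 43.4 and 33.2% in control libraries A to D and 66.5, 68.4, 85.5 and 73.8% in cytokine libraries A to D. PDK2 held 39.2% ± 6.93 in control and 14% ± 5.20 in cytokine libraries, and PDK3 held 25.5% ± 4.06 and 11.6% ± 3.38 (SD, n = 4 each). The family total was 76.5 ± 18.0 TPM in control and 145 ± 61.3 TPM in cytokine libraries (SD, n = 4 each). The leading kinase transcript per length was PDK2 in control A, B and D and PDK4 in control C and in all cytokine libraries. PC (ENSG00000173599, chr11:66848233-66958376), pyruvate carboxylase, was at 23.6, 21.4, 29.7 and 24.9 CPM in control libraries A to D and 21.1, 20.6, 31.5 and 23.1 CPM in cytokine libraries A to D, with groups that overlapped (log2 fold change -0.06 ± 0.16 (SE), adjusted p = 0.813 in limma) and a direction that turned to 0.09 after TMM scaling.

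**Figure D3:**
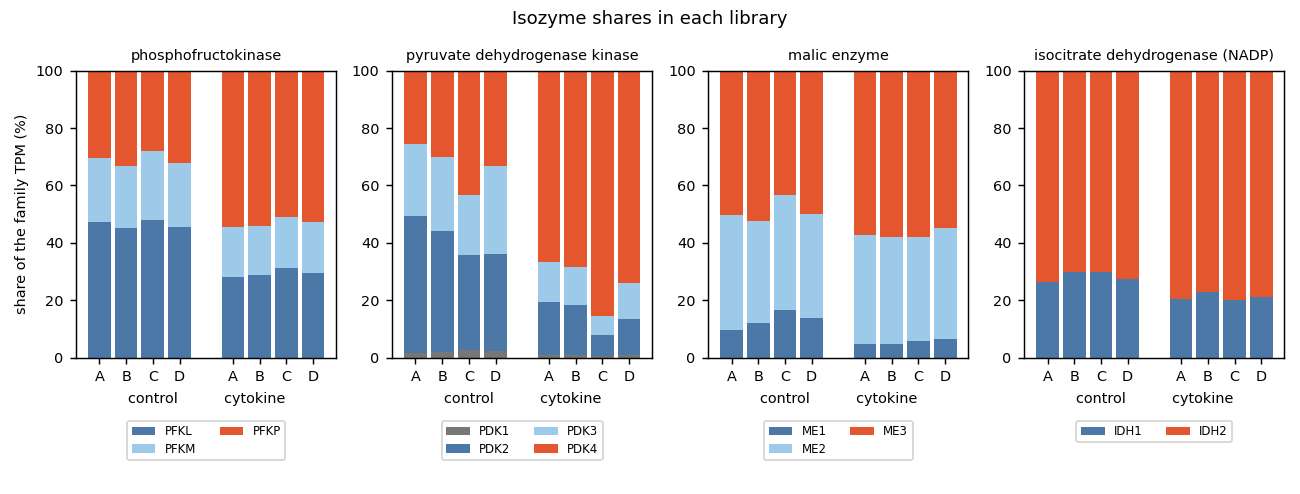
Share of each isozyme in the summed TPM of its family (y axis, percent) in every control and cytokine library A to D. PFKP goes from 28.0-33.0% to 51.0-54.5% and PDK4 from 25.5-43.4% to 66.5-85.5%, without overlap between conditions.

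Of the 14 TCA cycle members 1 was called, IDH1, where 27% of all genes were called. IDH1 is the cytosolic and peroxisomal NADP-dependent isocitrate dehydrogenase and no enzyme of the mitochondrial cycle itself. Of the other 13 members 0 were called in limma on CPM, 1 had an adjusted p below 0.05 alone (IDH3G), and SUCLG2 was called higher after TMM scaling. IDH1 (ENSG00000138413, chr2:208236227-208266074) was at 39.2, 48.0, 80.8 and 60.5 CPM in control libraries A to D and 27.8, 28.6, 36.5 and 35.3 CPM in cytokine libraries A to D. The lowest control was above the highest cytokine library, and the log2 fold change was -0.79 ± 0.21 (SE) with an adjusted p of 0.0146 in limma.

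IDH3A, IDH3B and IDH3G make up the NAD-dependent isocitrate dehydrogenase of the cycle. IDH3G (ENSG00000067829, chrX:153785766-153794523), its gamma subunit and the most abundant gene of the citrate to succinyl-CoA steps per length, was at 119.5, 128, 106 and 87.4 CPM in control libraries A to D and 91.0, 85.2, 72.6 and 72.6 CPM in cytokine libraries A to D. Only control D and cytokine A overlapped (log2 fold change -0.45 ± 0.14 (SE), adjusted p = 0.0359 in limma). Leaving out either of these libraries gave a call, and after TMM scaling the log2 fold change was -0.29. IDH3B (ENSG00000101365, chr20:2658395-2664219), the beta subunit, was at 74.6, 75.7, 92.5 and 88.3 CPM in control libraries A to D and 58.3, 63.8, 73.7 and 68.1 CPM in cytokine libraries A to D. Its groups did not overlap, with a small difference that did not pass the test (log2 fold change -0.33 ± 0.12 (SE), adjusted p = 0.0657 in limma). MDH2 (ENSG00000146701, chr7:76048051-76067508), the mitochondrial malate dehydrogenase, was at 169.9, 151, 178 and 128 CPM in control libraries A to D and 187, 182, 211 and 168 CPM in cytokine libraries A to D. These overlapped (log2 fold change 0.26 ± 0.13 (SE), adjusted p = 0.17 in limma). CS, the citrate synthase that opens the cycle, had a log2 fold change of -0.17, and OGDH, of the oxoglutarate dehydrogenase complex, a log2 fold change of -0.09.

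The malic enzymes return malate to pyruvate, ME1 in the cytosol and ME2 and ME3 in mitochondria. ME1 (ENSG00000065833, chr6:83210389-83431071) was at 1.56, 2.20, 3.86 and 2.91 CPM in control libraries A to D and 1.04, 1.11, 1.49 and 1.69 CPM in cytokine libraries A to D. Control A overlapped with cytokine D, and the log2 fold change was -0.88 ± 0.29 (SE) with an adjusted p of 0.0409 in limma. This call depended on the fit. It was lost after TMM scaling (adjusted p = 0.0528), and when control B, C or D or cytokine A, B or C was left out, with log2 fold changes of -1.10 to -0.68 over all left-out libraries. With the pairs as a block it was called on CPM (adjusted p = 0.00138 in limma) and after TMM scaling (adjusted p = 0.00364 in limma), and edgeR with TMM called it without the block (adjusted p = 0.0472). ME3 (ENSG00000151376, chr11:86441108-86672636) was at 9.11, 10.8, 11.3 and 12.1 CPM in control libraries A to D and 14.1, 14.9, 16.5 and 15.7 CPM in cytokine libraries A to D. The cytokine libraries all lay above the controls, with a change just under the fold threshold on CPM (log2 fold change 0.50 ± 0.14 (SE), adjusted p = 0.018 in limma) that passed after TMM scaling (0.65) or without control C, control D, cytokine A or cytokine B. ME2, with a log2 fold change of 0.26, was not called.

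The 20 members not given by library had log2 fold changes from -0.67 to 0.50 and adjusted p from 0.0560 to 0.919, and 8 of them changed sign with TMM scaling.

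Within a library the ratio of paired isozymes is free of the scaling. Of 14 pairs chosen for this purpose 13 could be computed, and in 6 the groups did not overlap. Each of these reached p = 0.0286 in a 2-sided exact permutation test of 4 against 4 libraries, the smallest p this design allows, and p = 0.0619 after Benjamini-Hochberg adjustment over the 13 ratios, so 0 of 13 passed after adjustment. The PFKP to PFKL ratio went from 0.360 to 0.977 (geometric means, log2 difference 1.44). The PDK4 to PDK1 ratio went from 4.47 to 27.1 (geometric means, log2 difference 2.60). The IDH2 to IDH1 ratio, mitochondrial against cytosolic enzyme, went from 1.5 to 2.23 (geometric means, log2 difference 0.57). The ratio of SUCLA2 to SUCLG2, which pair the same succinyl-CoA synthetase alpha subunit to ADP or GDP, went from 3.51 to 2.19 (geometric means, log2 difference -0.68), with SUCLG2 at 6.41, 7.45, 12.0 and 9.25 CPM in control libraries A to D and 11, 13.0, 11.6 and 12.9 CPM in cytokine libraries A to D. The ME1 to ME2 ratio went from 0.0702 to 0.0307 (geometric means, log2 difference -1.19) and the PFKM to PFKL ratio from 0.400 to 0.485 (geometric means, log2 difference 0.28). Ratios that did not separate include LDHA to LDHB and PC to PDHA1, with log2 differences of 0.04 and 0.02.

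Genes of the same pathways outside the list were looked up for context, 57 in the table. Of these 12 were called (27% of all genes), 1 higher and 11 lower (9.52% and 17.5% of all genes). Glucose entry was represented by the transporters SLC2A1 and SLC2A2. SLC2A1 had a log2 fold change of 0.37 and was called only after TMM scaling (0.52) and in other fits that used such a scaling. SLC2A2 was at 0.518-0.606 CPM in control and 0.214-0.402 CPM in cytokine libraries. It was called lower with the replicate block (adjusted p = 0.0423 in limma), without the intensity trend and under quantile normalization. The authors kept genes above 0.5 CPM in 4 or more samples. Among the libraries used, SLC2A2 met this only through the control group, where it is high, so these calls are no independent support for a decrease.

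Among genes that control fructose bisphosphate or release glucose, 4 of 8 were called, all lower (17.5% of all genes were called lower). G6PC2, the islet glucose 6-phosphatase, was at 54.1, 50.6, 59.5 and 42.1 CPM in control libraries A to D and 11.1, 11.3, 5.11 and 7.68 CPM in cytokine libraries A to D, and the log2 fold change was -2.60 ± 0.24 (SE) with an adjusted p of 1.72e-05 in limma. This was the largest log2 fold change, in size, among these other pathway genes. FBP1, which reverses phosphofructokinase, went from 9.50 ± 0.122 CPM (SD, n = 4) in control to 3.45 ± 0.609 CPM (SD, n = 4) in cytokine libraries (log2 fold change -1.45 ± 0.17 (SE), adjusted p = 0.000109 in limma). PFKFB2, which makes the phosphofructokinase activator fructose 2,6-bisphosphate, went from 102 ± 21.9 CPM (SD, n = 4) in control to 49.4 ± 8.85 CPM (SD, n = 4) in cytokine libraries (log2 fold change -1.04 ± 0.17 (SE), adjusted p = 0.00118 in limma). PKLR, the liver and islet pyruvate kinase, went from 1.36 ± 0.292 CPM (SD, n = 4) in control to 0.365 ± 0.145 CPM (SD, n = 4) in cytokine libraries. Its log2 fold change was -1.68 ± 0.29 (SE) with an adjusted p of 0.00144 in limma, at a level far below PKM. Among the libraries used, PKLR exceeded the filter level of 0.5 CPM in every control and in cytokine A only. PKLR thus met the filter only through the control group, where it is high, so its call is no independent support for a decrease. LDHD, the mitochondrial D-lactate dehydrogenase, went from 4.66 ± 0.915 CPM (SD, n = 4) in control to 1.83 ± 0.0956 CPM (SD, n = 4) in cytokine libraries (log2 fold change -1.28 ± 0.19 (SE), adjusted p = 0.000659 in limma). GPD1, the cytosolic glycerol 3-phosphate dehydrogenase of the redox shuttle, went from 41.2 ± 4.91 CPM (SD, n = 4) in control to 18.2 ± 1.44 CPM (SD, n = 4) in cytokine libraries, and GPT, the alanine aminotransferase, from 8.04 ± 1.70 CPM (SD, n = 4) in control to 3.60 ± 0.923 CPM (SD, n = 4) in cytokine libraries, with log2 fold changes of -1.17 and -1.15. PFKFB4, OGDHL and GLS2 were also called lower (-0.84, -0.52 and -0.58), and OGDHL and GLS2 lost theirs after TMM scaling (OGDHL also without control C, control D or cytokine A).

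The single higher call was MPC1, a subunit of the mitochondrial pyruvate carrier, which was at 7.76, 10.7, 22.1 and 17.3 CPM in control libraries A to D and 24.9, 25.9, 36.4 and 35.6 CPM in cytokine libraries A to D. The groups did not overlap, and the log2 fold change was 1.17 ± 0.29 (SE) with an adjusted p of 0.0116 in limma. PDHX, a component of the pyruvate dehydrogenase complex, and SDHA, a subunit of succinate dehydrogenase, were not called (log2 fold changes of 0.29 and 0.38), and SDHA was called after TMM scaling with the block. None of the 7 pentose phosphate genes was called in limma on CPM (27% of all genes were). An adjusted p below 0.05 alone was reached by 2 of them, and an unadjusted p below 0.05 by 4.

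**Figure D4:**
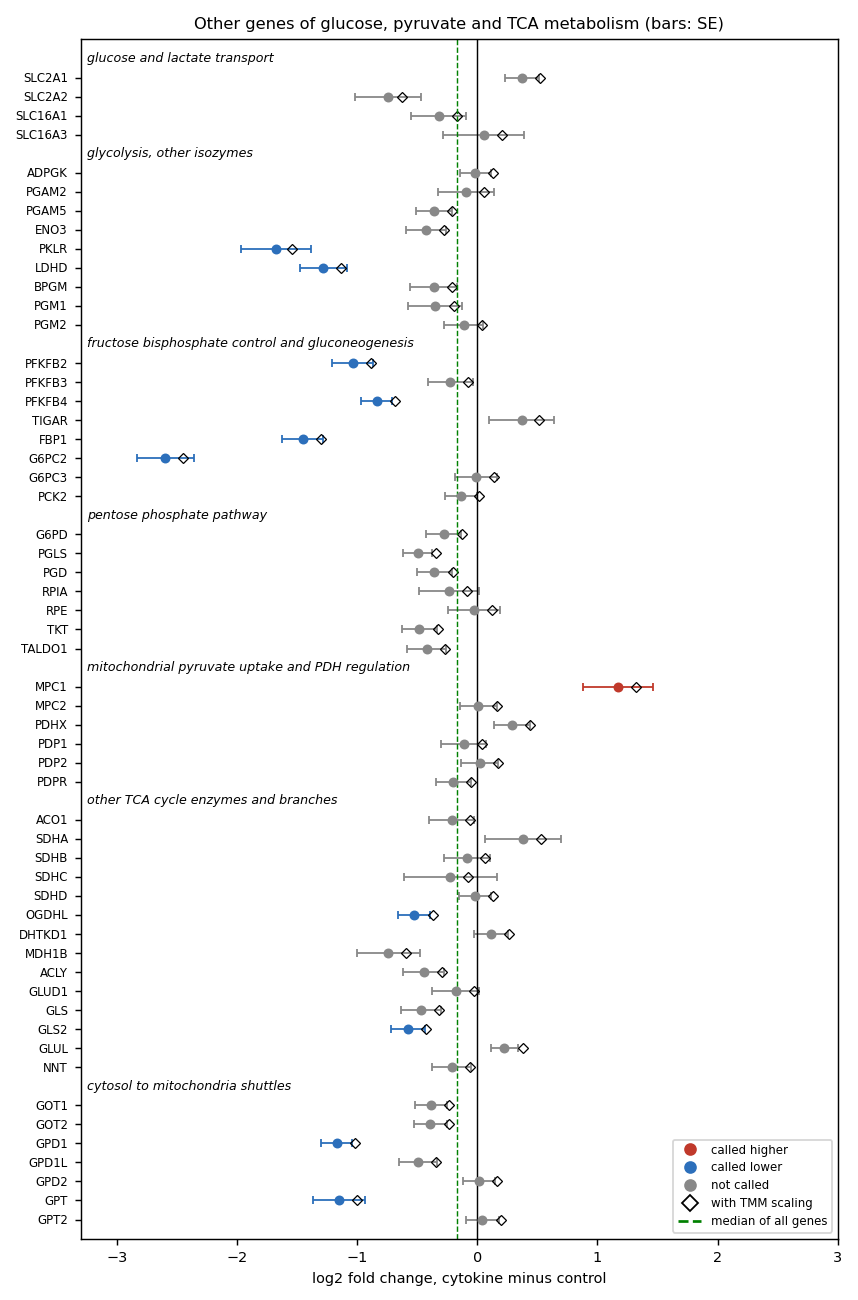
Log2 fold change (cytokine minus control, x axis) of 55 other genes of glucose, pyruvate and TCA metabolism by role, with standard errors, TMM estimates as open diamonds and the median of all genes (-0.17) as a dashed line. G6PC2 (-2.60) lies farthest to the left and MPC1 (1.17) is the only gene called higher.

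Of 15 regulators of the pathway 1 was called (27% of all genes were). TXNIP, a glucose-responsive inhibitor of thioredoxin and of glucose uptake, went from 2.54 ± 0.651 CPM (SD, n = 4) in control to 0.90 ± 0.482 CPM (SD, n = 4) in cytokine libraries (log2 fold change -1.48 ± 0.35 (SE), adjusted p = 0.00837 in limma). HIF1A, the oxygen-regulated factor whose targets include many glycolytic genes, had a log2 fold change of 0.12 with an adjusted p of 0.464 in limma, and MYC a log2 fold change of -0.45 with an adjusted p of 0.273. With TMM scaling PRKAA2, a catalytic subunit of AMP-activated kinase, was also called, higher.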

How the data were processed

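RNA from 4 control and 4 cytokine libraries of EndoC-βH5 cells was sequenced with a strand-specific mRNA kit. Per the labels and the methods, the authors aligned reads to GRCh38 with TopHat2 2.1.1, counted them on the genes of Ensembl release 107 with HTSeq 0.9.1 and removed genes that did not exceed 0.5 CPM in 4 or more samples. The deposited unit is CPM, in which counts are scaled to a common total. In each library 100% of the values were whole multiples of 1 read (within 0.01 read), so reads were recovered. Another 4 columns of values were not used. Columns carry no replicate number and were assigned by group.

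The test was limma 3.58.1 (R 4.3.3) with an intensity trend and no block on log2-transformed CPM (pseudocount 0.1) over all 16525 genes. The study's methods used edgeR, which needs counts and served as an alternative on the recovered reads. Run here without a block, edgeR called 4067 genes with TMM and 4442 without, against 4470 in limma. With the replicate block and TMM edgeR called 5301. These are not the counts that the study reported. DESeq2 1.42.0 was another alternative. TPM used exon lengths of GENCODE 29 on GRCh38, present for 97.8% of genes. Fits and exact tests were tested on simulated data. The members and lists were chosen with earlier results of these data known. Values in every library are given for called members, for those without overlap and for the member of highest TPM of each role. Of other pathway genes, those called with a log2 fold change of 1 or more and a few set names are given, and any further name was chosen after its value was seen. Some genes that this rule covers are left out of the text. The pairs come from the shared starts of column names. Deviations from the group means correlated by 0.574, 0.590, 0.797 and 0.741 within pairs A to D, and control A with cytokine B by 0.571, which does not separate A from B. No library pair was a copy, as the chi-square per gene was 5.89 or more. Where a gene has 0 reads, up to 3 reads are possible by counting error alone.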

Additional observations from a re-analysis of the deposited data

Results flagged for a closer look

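Over the 42 members, 84 groups of 4 libraries were looked at for a library far from the other 3, and 1 was found, where chance gives about 1 in 20 groups. HK1 was at 5.21 CPM in cytokine library C and at 2.25 to 2.55 CPM in the other cytokine libraries, a gap that took up most of the range of the group. Without that library HK1 was still called higher, as in every other alternative run. Among the libraries used, HK1 met the authors' filter only through the cytokine group, so these repeated calls are no independent support.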

How the results depend on the processing

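Of the results that count members, 10 members called became 10 to 12 under every alternative except an adjusted p alone (15) and stayed within 1.5 times the reported count. The split by direction depended on the scaling. Members called higher numbered 3 on CPM, 6 with TMM scaling, edgeR with TMM and the replicate block with TMM (limma and edgeR), 7 with median-of-ratios scaling and DESeq2, 5 with quantile normalization, 5 with an adjusted p alone, and 3 to 5 with each library left out (5 without control C, where SUCLG2 and ME3 were added). Members called lower numbered 7 on CPM, 4 with TMM or median-of-ratios scaling and 5 to 9 with each library left out. Other pathway genes called higher numbered 1 on CPM, 2 with TMM or median-of-ratios scaling, edgeR with TMM and DESeq2, and 4 with the replicate block with TMM in limma or edgeR. The median log2 fold change of glycolysis was 0.048 on CPM, 0.20 with TMM, 0.21 with median-of-ratios scaling, -0.011 with quantile normalization, 0.17 with edgeR and TMM, 0.18 with DESeq2, 0.20 in both fits with the block and TMM, and -0.066 to 0.056 with each library left out. That of pyruvate entry and TCA genes was -0.14 on CPM, 0.0074 with TMM (with or without the block), 0.017 with median-of-ratios scaling, 0.0059 with edgeR and TMM, 0.016 with DESeq2, 0.0073 with the block in edgeR and TMM, and -0.22 to -0.0145 with each library left out. PC reversed from -0.06 to 0.091 with TMM with or without the block, 0.10 with median-of-ratios scaling, 0.11 with edgeR and TMM, 0.12 with DESeq2, 0.094 with the block in edgeR, 0.027 without control C and 0.0069 without cytokine B, and ranged from -0.197 to 0.027 with each library left out. In limma with TMM or median-of-ratios scaling these shifts have the size of the shift of the median of all genes (from -0.17 to -0.015 and -0.0054), and for the other changes the cause was not tested. With the replicate block on CPM, 11 members were called (35.4% of all genes), PDK1 being the gain, and 14 other pathway genes. Among the genes described by name it also changed the calls of SLC2A2, IAPP and GCG. GCG was not called without the block and was called lower with it (log2 fold change -1.47, adjusted p = 3.89e-05 in limma). Isozyme ratios without overlap numbered 6, and 6 to 8 with each library left out, and 10 ratios moved in the same direction in all 4 pairs, where a sign-flip test cannot go below 0.125. Among the members depth limits HK1 in control libraries (at most 47 reads) and LDHB (10 to 53 reads) the most, and SLC2A2 had 10 to 31 reads.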

Other observations

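Several members differed more between the A and B and the C and D libraries than between conditions. FH, the fumarase of the TCA cycle, was at 19.1 and 19.9 CPM in control A and B and 44.7 and 37.4 CPM in control C and D, and at 18.1, 17.6, 35.0 and 30.5 CPM in cytokine libraries A to D. SUCLA2 was at 22.2, 22.6, 46.1 and 34.8 CPM in control libraries A to D and at 22.4, 21.9, 33.5 and 30.0 CPM in cytokine libraries A to D. ALDOA went the other way, at 21.9, 15.4, 3.64 and 2.40 CPM in control and 18.6, 15.4, 7.09 and 2.91 CPM in cytokine libraries A to D. The labels give no batch for these sets of columns.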
